A study of Mus musculus with 18 samples.

Results

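The protein kinase C (PKC) genes of the mouse embryo are described here by their mRNA, their ribosome occupancy and their translational efficiency in 3 tissues at E11.5. The members are the genes whose symbols begin with *Prkc* in the study's list of 170 signalling components, matched to the deposited tables by UCSC identifier. All 8 were found among the 12064 genes of the mesoderm table, and 7 among the 11231 genes of the neural tube and forelimb table, which does not list *Prkcq*. RNA-Seq measured mRNA, and Ribo-Seq measured ribosome-protected fragments (RPFs), the stretches of mRNA that a translating ribosome shields from nuclease. Each tissue had 3 replicates of both library types, 18 libraries in all. Mesoderm cells were GFP+ cells sorted from embryos carrying the R26-mTmGflox/+ reporter and the transgene Tg(T-cre)1LWD/J/+, in which Cre driven by the *T* (brachyury) promoter switches on a membrane GFP in descendants of the primitive streak. The sort therefore held somite, limb and nephron lineages together. The NT (neural tube) and the FL (forelimb buds) were dissected from FVB embryos and not sorted, so each holds several cell types. The NT was the stretch between the level of the hind limb and the rhombomeres. All tissues were handled in cycloheximide, which stalls ribosomes, and no group carried a mutation or a drug treatment meant to change signalling.

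PKC enzymes are serine/threonine kinases of the AGC group that act downstream of phospholipase C. Classical isoforms (PKCα from *Prkca*, PKCβ from *Prkcb*) need calcium and diacylglycerol, nPKC isoforms (PKCδ from *Prkcd*, PKCε from *Prkce*, PKCη from *Prkch*, PKCθ from *Prkcq*) need diacylglycerol alone, and atypical isoforms (PKCι from *Prkci*, PKCζ from *Prkcz*) need neither and are regulated through the Par6 polarity complex. *Prkcz* also gives rise to a short form, PKMζ, that consists of the kinase domain alone and is made from an internal promoter in the nervous system.

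In the RefSeq annotation of GRCm38.p6, the build that the tables' mm10 denotes, the classical genes lay at chr11:107933387-108343888, minus strand (*Prkca*, uc011ygr.1), and chr7:122289104-122634402, plus strand (*Prkcb*, uc009jou.1). The nPKC genes lay at chr14:30595353-30626414, minus strand (*Prkcd*, uc007svh.2), chr17:86167785-86657919, plus strand (*Prkce*, uc008dug.2), chr12:73584796-73778185, plus strand (*Prkch*, uc007nwn.1) and chr2:11171905-11301226, plus strand (*Prkcq*, uc008iic.1). The atypical genes lay at chr3:30995742-31052740, plus strand (*Prkci*, uc008ovs.1) and chr4:155260118-155361428, minus strand (*Prkcz*, uc008wdd.2). Curated RefSeq transcripts of *Prkcz* encoded 592, 484 and 409 codons and shared their 3′ part, so that reads there could not be assigned to the full-length or a short form. The windows below show where translation of these forms, and of the isoforms compared with them, is annotated to start. Each gives 12 bases of the 5′-UTR, the start codon in capitals and the first 15 bases that follow it.
Prkcz, 592 codons: gctgagtgcgccATGcccagcaggacggac
Prkcz, 484 codons: ctctgtcctgacATGgttggagagtccatc
Prkcz, 409 codons: tgcaggaggcatATGgattctgtcatgcct
Prkci, 595 codons: gggagtgaggagATGccgacccagagggac
Prkce, 737 codons: cccgccccgaccATGgtagtgttcaatggc
Prkcd, 674 codons: ggaggctccatcATGgcacccttcctgcgc
Prkca, 672 codons: ttggggggaaccATGgctgacgtttacccg
The first base of the start codon was at position 155361222 of chromosome 4 for the 592-codon form of *Prkcz*, 155344692 for the 484-codon form and 155294269 for the 409-codon form. A 700-codon transcript of *Prkcd*, with a 5′-UTR of 8 nt, was too short upstream for a window. Over the 11 distinct start windows of the other transcripts, the base 3 before the start codon was a purine in 10. The exception was the window of the 409-codon *Prkcz*. A G followed the start codon directly in 7 of the 11.

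Upstream ATG triplets, counted in any frame of the 5′-UTR, were found in every curated transcript of 3 of the 8 genes. The *Prkce* transcript held 4 in a 5′-UTR of 808 nt, the *Prkch* transcripts held 1 and 7, and the *Prkcz* transcripts held from 1 to 6. No ATG was found upstream in transcripts of *Prkca*, *Prkcb*, *Prkcd*, *Prkci* or *Prkcq*. Among all 21000 genes with curated transcripts, 40.5% held an upstream ATG in every transcript, so the share among the PKC genes was close to that of the genome.

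The coding sequences differed in how far short reads could be told apart from other genes. Of the 1692 stretches of 28 bases (the length of the shortest RPFs kept) in the longest *Prkcz* coding sequence, 1159 (68.5%) also occurred on the annotated transcript of *Prkcz2*, a pseudogene. For *Prkca* and *Prkcb* 13 stretches each were shared (0.673% and 0.672%), and for the other 5 genes none was. Only uniquely mapped reads were counted. If the transcript set used for mapping held *Prkcz2*, *Prkcz* reads may have been lost. The loss need not have been equal in RNA-Seq and Ribo-Seq, since the RNA fragments kept ran longer than the RPFs. If the set lacked *Prkcz2*, its reads could have been counted as *Prkcz*. The effect of either case on the levels or translational efficiency of *Prkcz* was not tested. The longest run shared by the atypical pair *Prkcz* and *Prkci*, catgtgtttgagcaggcgtcca, was 22 bases and shorter than a footprint.

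Reads on the coding sequences numbered 38054003 to 50136443 per library in mesoderm RNA-Seq and 11000015 to 16802829 in mesoderm Ribo-Seq. In the NT and FL table they numbered 24555103 to 33061460 for RNA-Seq and 12967893 to 31993255 for Ribo-Seq. In 4 libraries, 3 of them from the NT and FL, the log2 values stood apart from their group. FL Ribo-Seq replicate 3 correlated at r = 0.886 and 0.896 with replicates 1 and 2 (0.976 between those), NT Ribo-Seq replicate 3 at 0.933 and 0.934 (0.989), and NT RNA-Seq replicate 1 at 0.946 and 0.949 (0.970). FL Ribo-Seq replicate 3 also had 31096 normalized reads of the mesoderm markers *Tcf15*, *Pdgfra* and *Pdgfrb* in sum, against 9534 and 10209 in its group. NT RNA-Seq replicate 1 had 659 normalized reads of *Epcam*, an epithelial marker, against 96.0 and 107 in its group. The mesoderm library was RNA-Seq replicate 1, which correlated at 0.939 and 0.953 with the other two (0.987 between those). The labelled tissues could be recognised by their markers. *Nes*, *Dcx* and *Ncam1* summed to 27590 to 43192 normalized reads in NT RNA-Seq and to 6607 to 7962 in FL, whereas *Msx1*, *Hoxd11* and *Hoxd13* summed to 1026 to 1489 in NT and 13223 to 17102 in FL. Endothelial, macrophage and erythroid markers were above 0 in every tissue. Mesoderm Ribo-Seq replicate 2 had 84280 normalized reads of the erythroid marker *Hba-x* against 9340 and 18362 in its group, and 4854 of the macrophage marker *Csf1r* against 1227 and 1800. Mesoderm RNA-Seq replicate 2 was also the highest of its group in *Hba-x*, with 12366.9 against 2250.5 and 4719.3. In the sorted mesoderm cells the neural markers summed to 8796 to 11344. The tables were normalized separately, so no level was compared between mesoderm and the other tissues.

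**Figure D1:**
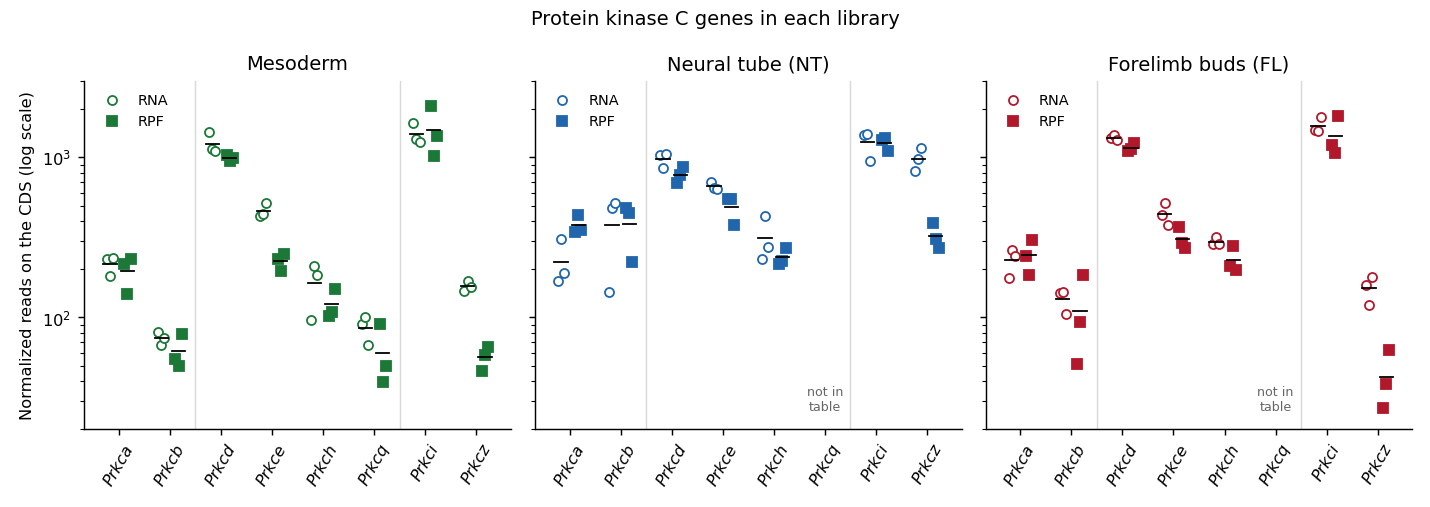
Normalized reads (log axis) of each PKC gene in RNA-Seq (open circles) and Ribo-Seq (filled squares) of 3 replicates per tissue, with the mean of each group as a black line; grey lines separate classical, nPKC and atypical genes. The *Prkcz* squares sit below all *Prkcz* circles in each tissue, and the *Prkce* squares below all *Prkce* circles. *Prkcz* mRNA in NT lies between 825 and 1140.0 normalized reads against 119 to 179.8 in FL.

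The values below are normalized reads on the coding sequence, given in the order of replicates 1, 2 and 3. *Prkci* and *Prkcd* led the family in the mesoderm and the FL. *Prkci* mRNA reached 1648, 1312 and 1257 normalized reads in mesoderm and its RPFs 2105, 1021 and 1353. In NT its mRNA was 1372, 1403 and 947 and its RPFs 1279, 1322 and 1092, and in FL its mRNA was 1486, 1455 and 1796 and its RPFs 1201, 1066 and 1808. The highest RPF value of *Prkci* in FL was that of the library that stood apart. *Prkcd* mRNA was 1432, 1122 and 1099 in mesoderm, with 1039.7, 944 and 987 RPFs. In NT *Prkcd* had 1037, 854 and 1053 mRNA reads and 694, 771 and 867 RPF reads, and in FL 1331, 1379.5 and 1282 mRNA reads and 1089, 1125 and 1223 RPF reads. Every FL value of *Prkcd* lay above every NT value of the same library type.

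*Prkcz* held the widest range of levels between the NT and FL. Its mRNA was 825, 984 and 1140.0 normalized reads in NT and 159.6, 119 and 179.8 in FL, and the groups were far from overlapping. NT libraries held 389.6, 311 and 273 RPF reads of it and FL libraries 27.3, 38.4 and 62.7, where the lowest value, in replicate 1, rested on 17 reads. In mesoderm *Prkcz* had 147, 169.6 and 156 mRNA reads against 46.2, 58.1 and 65.5 RPF reads, so that every RPF value was below every mRNA value in each of the 3 tissues.

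*Prkce* followed with intermediate levels. Its mRNA was 430.1, 441 and 516 normalized reads in mesoderm and its RPFs 231, 195 and 248, again without overlap. In NT its mRNA was 706, 645 and 631 and its RPFs 546, 552 and 377, the lowest of which came from the NT Ribo-Seq library that stood apart. In FL its mRNA was 434, 517 and 376 and its RPFs 366, 292 and 270.2. Every RPF value of *Prkce* was thus below every mRNA value in each tissue, as for *Prkcz*. The same held for *Prkcd* in mesoderm and FL. The share of all genes of which this holds was not counted. *Prkch* had 97.1, 210.2 and 185 mRNA reads in mesoderm, 231, 434 and 277 in NT and 287, 317 and 287 in FL. Its RPFs were 103, 108 and 151 in mesoderm, 217, 227 and 271 in NT and 210.1, 281 and 197 in FL, which overlapped the mRNA values in mesoderm and NT but not in FL. *Prkcq*, measured in mesoderm only, was low and variable, with 91.1, 101 and 67.0 mRNA reads and 90.9, 39.4 and 49.7 RPF reads, the lowest of which was 19 reads before normalization.

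The classical genes were low in mesoderm and differed in their pattern between the NT and FL. *Prkca* mRNA was 232, 182 and 237 normalized reads in mesoderm, 169, 311 and 189.9 in NT and 177, 266 and 243 in FL, where NT and FL overlapped. *Prkca* RPFs were 216, 141 and 230.3 in mesoderm, 343, 437 and 352 in NT and 244, 185 and 303 in FL, and every NT value was above every FL value. *Prkcb* was the family member on which single libraries weighed most. NT libraries held 144, 481 and 518 mRNA reads of *Prkcb* and FL libraries 143, 145 and 105, the low NT value being that of the RNA-Seq library that stood apart. Of *Prkcb* RPFs, NT had 481, 449.7 and 223 reads and FL had 51.3, 93.8 and 185, and in both tissues the value nearest the other tissue was that of the Ribo-Seq library that stood apart. In mesoderm *Prkcb* had 81.0, 66.9 and 74.6 mRNA reads and 55.1, 49.8 and 79.0 RPF reads.

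To set the genes beside each other, normalized reads were divided by the length in kb of the longest curated coding sequence without the codons left out of the counts. In mesoderm mRNA the order of levels was *Prkci* (814 ± 123 reads per kb, SD, n = 3), *Prkcd* (596 ± 91.2), *Prkce* (215 ± 21.8), *Prkca* (111 ± 15.4), *Prkcz* (91.6 ± 6.58), *Prkch* (82.3 ± 29.8), *Prkcq* (41.9 ± 8.53) and *Prkcb* (37.8 ± 3.59). The replicate ranges of the first 4 genes did not overlap, whereas those of *Prkca* and each later neighbour did. In mesoderm RPFs the order began with the same 4 genes, *Prkci* at 864 ± 321 and *Prkcd* at 485 ± 23.5 reads per kb, but *Prkce* (104 ± 12.6) and *Prkca* (99.9 ± 24.5) overlapped. *Prkcz* (32.9 ± 5.67), *Prkcb* (31.3 ± 7.94) and *Prkcq* (29.1 ± 13.2) ended that order and could not be separated.

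The NT mRNA order differed from that of the FL in the places of *Prkcz* and *Prkcb*. In NT, *Prkcz* came second at 572 ± 91.7 reads per kb, its range overlapping those of *Prkci* (718 ± 148) above and *Prkcd* (480 ± 54.0) below. *Prkcb* came directly after *Prkce* in NT (mean 194, from 73.4 to 264), its range overlapping that of *Prkch* below. In FL *Prkcz* came sixth of 7 at 88.9 ± 18, after *Prkci* (914 ± 109), *Prkcd* (651 ± 23.9), *Prkce* (205 ± 33), *Prkch* (149 ± 8.65) and *Prkca* (117 ± 23.7) and before *Prkcb* (mean 66.8, from 53.56 to 74.05). In RPFs *Prkcz* came lower than in mRNA in both tissues. It was sixth in NT at 189 ± 34.7 reads per kb, where *Prkce* (228 ± 46.2), *Prkcb* (196 ± 71.8), *Prkca* (193 ± 26.3) and *Prkcz* each overlapped the next, and last in FL at 24.9 ± 10.6, overlapping *Prkcb* (56.1 ± 34.9).

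**Figure D2:**
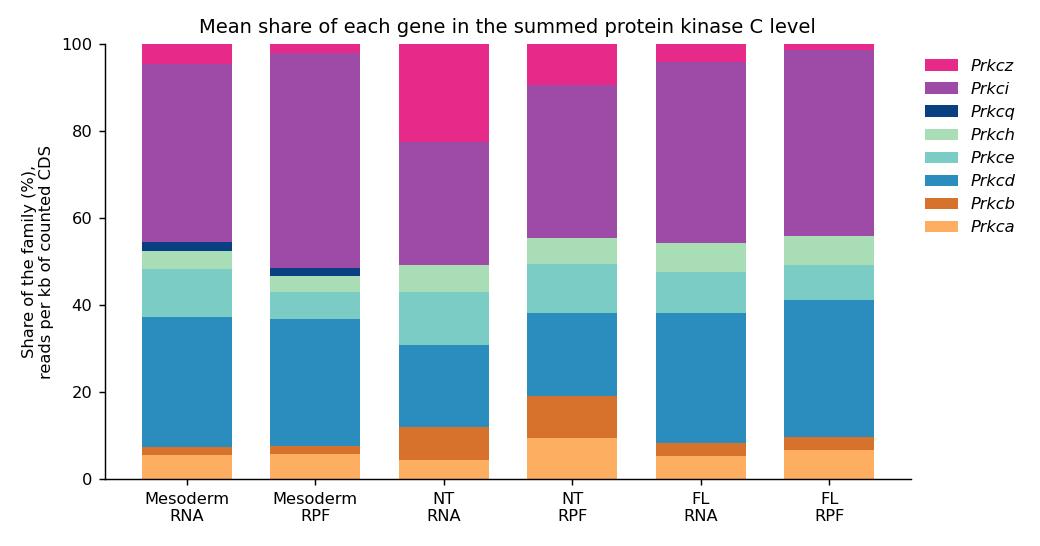
Mean share (%) of each PKC gene in the summed reads per kb of the family, for the 6 groups of 3 libraries; mesoderm sums hold 8 genes and the others 7. *Prkcz* takes 22.5% of the family mRNA but 9.33% of the RPFs in NT, and *Prkci* and *Prkcd* together make up most of the family in mesoderm and FL.

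As a share of the family's summed reads per kb, *Prkcz* made up 4.64% ± 0.67 (SD, n = 3) of mesoderm mRNA and 2.02% ± 0.65 of mesoderm RPFs. In NT the shares were 22.5% ± 3.35 and 9.33% ± 1.32, and in FL 4.05% ± 0.79 and 1.34% ± 0.37. In each tissue the 3 RPF shares of *Prkcz* lay below the 3 mRNA shares. *Prkci* took 40.8% ± 2.47 of mesoderm mRNA, 28.3% ± 5.93 of NT mRNA and 41.6% ± 3.82 of FL mRNA, and *Prkcd* 29.9% ± 1.84, 19.0% ± 3.21 and 29.8% ± 1.81. The classical pair made up 12.0% ± 4.55 of the family mRNA and 19.1% ± 2.62 of its RPFs in NT, against 8.37% ± 1.03 and 9.81% ± 1.52 in FL. These shares are descriptions, and a rise of one gene lowers the shares of the others.

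Translational efficiency (TE) is the ratio of RPFs to mRNA, and log2 TE is given here with the median of all genes of the tissue at 0. It was tested with limma, which compares Ribo-Seq with RNA-Seq for each gene across replicates, and p-values were adjusted over all genes of the table. A gene counted as TE-low or TE-high if its adjusted p was under 0.05 and its TE was 3-fold or more below or above the median. *Prkcz* had the lowest log2 TE of the family in each of the 3 tissues. Its log2 TE was -1.69, -1.57 and -1.27 in mesoderm replicates 1, 2 and 3, -1.11, -1.69 and -2.09 in NT and -2.51, -1.61 and -1.51 in FL. These average to -1.51 ± 0.21 (SD, n = 3), -1.63 ± 0.49 and -1.88 ± 0.55, or 2.84-fold, 3.09-fold and 3.67-fold below the median gene. *Prkcz* was TE-low in NT (limma SE 0.28, adjusted p = 0.0061) and in FL (SE 0.40, adjusted p = 0.0095). In mesoderm it passed the p threshold (SE 0.24, adjusted p = 2.6e-04) but not the 3-fold threshold. Among all genes, 12.0% had a lower or equal log2 TE in mesoderm, 4.2% in NT and 9.4% in FL.

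In mesoderm 0 of the 8 PKC genes were thus TE-low, beside 10.9% of all genes. In NT 1 of 7 was, beside 4.30% of all genes, and in FL 1 of 7, beside 13.4%. No PKC gene was TE-high in a tissue, against 1.17% of all genes in mesoderm, 0.427% in NT and 6.28% in FL. At the adjusted p alone, 2 of 8 members were below the median in mesoderm (34.2% of all genes were), 1 of 7 in NT (15.6%) and 1 of 7 in FL (26.6%). The median log2 TE over the members was -0.38 in mesoderm, -0.37 in NT and -0.39 in FL, with 8 of 8, 5 of 7 and 6 of 7 below 0. The call of *Prkcz* at 3-fold rested on single replicates. It was lost in NT without replicate 3 (log2 TE -1.40) and in FL without replicate 1 (-1.57), and gained in mesoderm without replicate 3 (-1.62), while the adjusted p stayed under 0.05 in each of these fits. Without mesoderm replicate 1, the replicate whose RNA-Seq library stood apart, *Prkcz* was at -1.40 (limma adjusted p = 8.8e-05), and *Prkcq* (-0.90, adjusted p = 0.035) passed the p threshold beside it and *Prkce*.

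**Figure D3:**
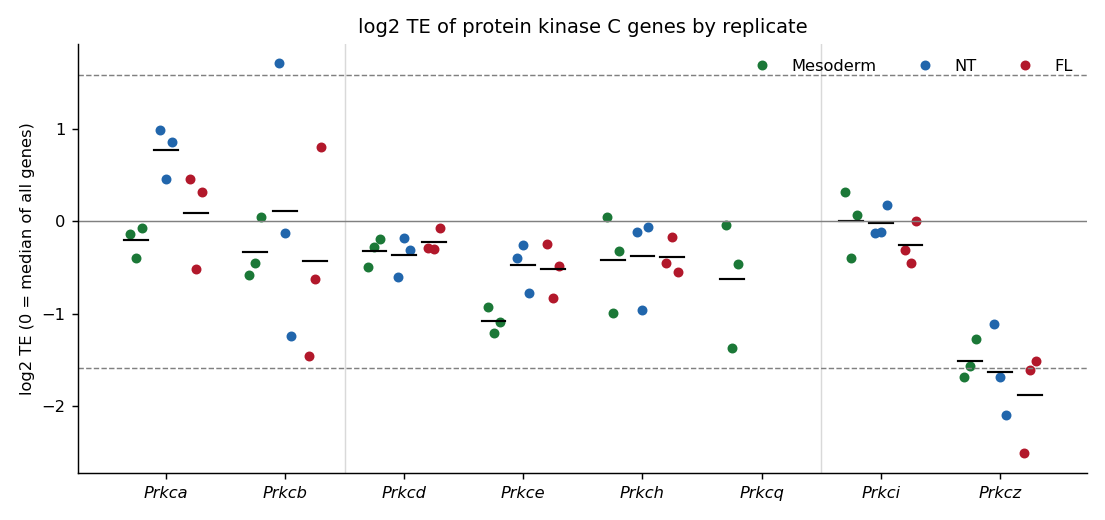
log2 TE of each PKC gene in each replicate (points), with the mean of 3 replicates as a black line, for mesoderm (green), NT (blue) and FL (red); 0 is the median of all genes of the tissue, dashed lines mark 3-fold from it, and grey lines separate classical, nPKC and atypical genes. *Prkcz* lies between -2.51 and -1.11 in all 9 pairs of libraries, and *Prkcb* spreads from -1.46 to 1.71.

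*Prkce* was the other member whose TE differed from the median in mesoderm. Its log2 TE there was -0.93, -1.21 and -1.09, a mean of -1.08 ± 0.14 (SD, n = 3; limma adjusted p = 3.9e-04), or 2.11-fold below the median gene. In NT it was -0.40, -0.25 and -0.77 (mean -0.48 ± 0.27, limma adjusted p = 0.18), and in FL -0.25, -0.83 and -0.48 (mean -0.52 ± 0.29, limma adjusted p = 0.13). All 9 values of *Prkce* were below 0, and the NT and FL values did not pass the test. The difference between mesoderm and the other tissues was not tested, because mesoderm came from a separate table, another mouse line and a sort in place of a dissection.

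The other nPKC genes had mean log2 TE below the median and did not pass the test with all replicates. *Prkcd* had a log2 TE of -0.32 ± 0.16 (SD, n = 3) in mesoderm, -0.37 ± 0.22 in NT and -0.22 ± 0.13 in FL, with all 9 values below 0 and limma adjusted p of 0.11, 0.27 and 0.45. Without mesoderm replicate 2, *Prkcd* passed in mesoderm (-0.36, limma adjusted p = 0.046), whereas *Prkch* was at -0.15 and *Prkcq* at -0.26. *Prkch* had -0.42 ± 0.53, -0.38 ± 0.50 and -0.39 ± 0.19, with limma adjusted p of 0.15, 0.38 and 0.25. *Prkcq* had -0.62 ± 0.68 in mesoderm (limma adjusted p = 0.091), from -1.38 in replicate 2 to -0.04 in replicate 1. Mesoderm replicate 2 also gave the lowest mesoderm values of *Prkce* (-1.21), *Prkch* (-0.99), *Prkci* (-0.40) and *Prkca* (-0.40). Its Ribo-Seq library was high in *Hba-x* and *Csf1r*, and its RNA-Seq library was high in *Hba-x*. The part of these markers in the values was not tested. The atypical *Prkci*, whose product shares the polarity complex with PKCζ, stayed near the median with -0.003 ± 0.36, -0.02 ± 0.17 and -0.25 ± 0.24 (limma adjusted p = 0.99, 0.95 and 0.41). For *Prkci* the 95% confidence interval of log2 TE was -0.42 to 0.41 in mesoderm, -0.53 to 0.48 in NT and -0.83 to 0.33 in FL, which leaves out a 3-fold difference from the median in any tissue.

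The classical genes did not lie on 1 side of the median. *Prkca* had a log2 TE of -0.20 ± 0.17 (SD, n = 3) in mesoderm, 0.77 ± 0.28 in NT and 0.08 ± 0.53 in FL. In NT all 3 values (0.99, 0.46 and 0.86) were above 0, the highest mean of the family there, at a limma p of 0.025 and an adjusted p of 0.077. *Prkcb* was -0.33 ± 0.33 in mesoderm. In NT it was 1.71, -0.13 and -1.24 and in FL -1.46, -0.63 and 0.81, a spread (SD 1.49 and 1.15) too wide for either mean to be read. The high NT value came with NT RNA-Seq replicate 1, the low NT value with NT Ribo-Seq replicate 3 and the high FL value with FL Ribo-Seq replicate 3. In FL without replicate 3, *Prkcb* (log2 TE -1.06, limma adjusted p = 0.022), *Prkce* (-0.55, adjusted p = 0.026) and *Prkci* (-0.40, adjusted p = 0.012) were below the median, and *Prkcz* (-2.07, adjusted p = 2.7e-04) stayed so. The gain was not limited to the PKC genes. By the 3-fold rule in either direction, 3454 of 11231 genes were called in that fit, against 2206 with all libraries. The share of all genes at the adjusted p alone was not counted there.

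The NT and FL were compared directly, since they share a table, to ask which PKC genes differ between the tissues in mRNA, in RPFs and in TE. Differences are FL minus NT on the log2 scale, from a limma fit of the 12 NT and FL libraries. *Prkcz* was 6.44-fold lower in FL in mRNA (log2 -2.69, SE 0.32, limma adjusted p = 2.6e-05) and 7.78-fold lower in RPFs (log2 -2.96, SE 0.32, adjusted p = 8.2e-06). Only 2.5% of genes had a difference in mRNA as low or lower, and 3.4% in RPFs. Both calls of *Prkcz* were kept in each of the 12 alternative fits, with the difference between -2.85 and -2.51 in mRNA and between -3.39 and -2.55 in RPFs. In bulk tissue, fewer cells that express a gene and less RNA in each cell cannot be told apart. The neural markers *Nes*, *Dcx* and *Ncam1* were lower in FL as well, 3.91-fold, 15.9-fold and 5.09-fold in mRNA (limma adjusted p of 8.9e-05, 8.2e-07 and 1.4e-06), and their part in the *Prkcz* difference was not tested.

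*Prkcz* was the 1 member of 7 called in mRNA, where 22.6% of all genes were called, and 4 of 7 were called in RPFs, where 45.3% were. The replicate ranges did not overlap for 4 of 7 members in mRNA (47.3% of all genes) and for 5 of 7 in RPFs (42.6%). *Prkcb* RPFs were 3.75-fold lower in FL (log2 -1.91, SE 0.53, limma adjusted p = 0.011). *Prkcb* mRNA differed by -1.34 (SE 0.53, adjusted p = 0.095) with all libraries and by -1.94 (adjusted p = 0.013) without NT RNA-Seq replicate 1, the library with the low *Prkcb* and high *Epcam* values. It also passed in edgeR (adjusted p = 0.049) and DESeq2 (adjusted p = 0.011) on whole reads.

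*Prkce* RPFs were 1.58-fold lower in FL (log2 -0.66, SE 0.23, limma adjusted p = 0.033), and its mRNA differed by -0.59 (SE 0.23, adjusted p = 0.090). Without FL Ribo-Seq replicate 3 the RPF difference of *Prkce* was -0.57 at an adjusted p of 0.051. *Prkcd* was the 1 member called with higher RPFs in FL, 1.48-fold (log2 0.56, SE 0.18, limma adjusted p = 0.023), and its mRNA differed by 0.45 (SE 0.18, adjusted p = 0.10). For *Prkca*, RPFs differed by -0.65 (limma adjusted p = 0.090) and mRNA by 0.06 (adjusted p = 0.92). Without FL Ribo-Seq replicate 3 the RPF difference of *Prkca* was -0.82 at an adjusted p of 0.034. *Prkch* (mRNA -0.03, RPFs -0.06) and *Prkci* (mRNA 0.36, RPFs 0.11) did not pass, with limma adjusted p of 0.35 or more. Leaving out replicate 1 or replicate 2 of all 4 groups left *Prkcz* as the only member called in RPFs. Among all 11231 genes, those called in RPFs fell in these fits from 5085 to 2026 and 1686. The loss of calls was thus not limited to the PKC genes.

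**Figure D4:**
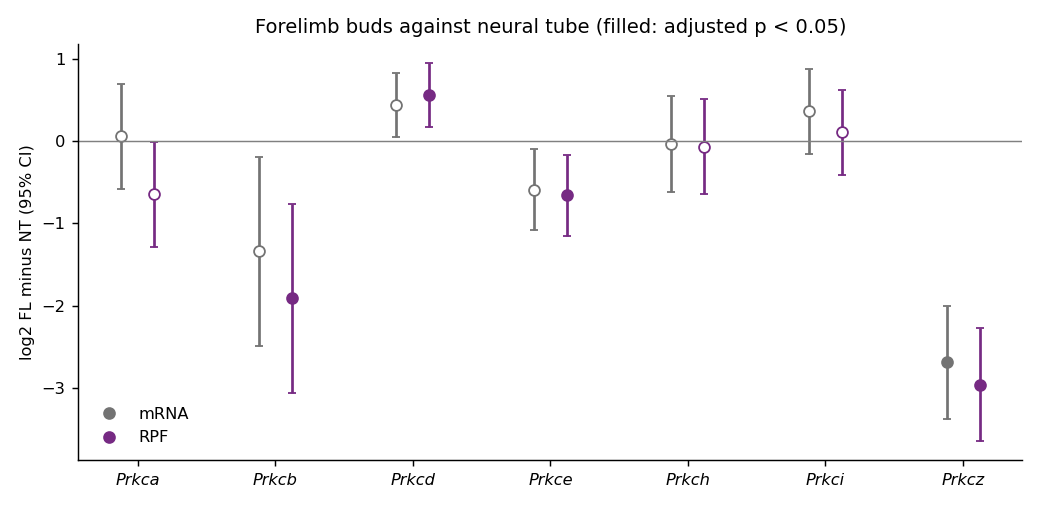
Difference FL minus NT (log2, points) with its 95% confidence interval (bars) for mRNA (grey) and RPFs (purple) of the 7 PKC genes in both tissues, 3 libraries a group; filled points passed an adjusted p of 0.05. *Prkcz* is at -2.69 in mRNA and -2.96 in RPFs, and *Prkcd* is the filled point above 0.

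The TE of no PKC gene differed between the NT and FL by the thresholds of this test, an adjusted p under 0.2 and 2-fold, which 0.401% of all genes passed. At an unadjusted p under 0.05 the count of members was also 0 in limma, and edgeR and DESeq2 called 0 of 7. The difference of *Prkcz* was -0.27 (SE 0.45, limma adjusted p = 0.71), with a 95% confidence interval of -1.25 to 0.70. The largest differences were those of *Prkca* at -0.71 (SE 0.42, limma adjusted p = 0.33, interval -1.62 to 0.20) and *Prkcb* at -0.57 (SE 0.75, adjusted p = 0.64, interval -2.19 to 1.06). The other 4 lay between -0.25 and 0.12. The intervals are wide, and a change of 2-fold in TE was left in by those of *Prkcz*, *Prkca* and *Prkcb*. Without replicate 3 of all groups, *Prkcb* passed at -1.86 (limma adjusted p = 0.059), but then 4833 of 11231 genes did, against 45 with all libraries.

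The enzymes and kinases around PKC in the same list of signalling components were set beside the family. The phospholipase C genes, whose products make the diacylglycerol that classical and nPKC isoforms bind, had a median log2 TE of -1.69 over their list in mesoderm. There 5 of 10 were TE-low, beside 10.9% of all genes. These were *Plce1* (-2.44, limma adjusted p = 5.3e-05), *Plcb2* (-2.33, adjusted p = 5.2e-05), *Plcg1* (-2.04, adjusted p = 8.0e-05), *Plcd3* (-1.97, adjusted p = 4.5e-04) and *Plcg2* (-1.89, adjusted p = 4.0e-04). In FL 4 of 8 were TE-low, beside 13.4% of all genes. They were *Plce1* (-2.98), *Plcg1* (-2.44), *Plcb4* (-1.82) and *Plch1* (-1.72), with limma adjusted p from 0.0071 to 0.037. In NT 0 of 8 were TE-low, beside 4.30% of all genes, and *Plcg1* alone passed the p threshold (-1.16, limma adjusted p = 0.022). The list's median was -1.65 in FL and -0.60 in NT, and none of its genes passed the test of the TE difference between these tissues. The log2 TE of *Prkcz* was above this list's median in mesoderm and below it in NT and FL, and every other PKC gene was above it in mesoderm and FL.

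Of 5 other AGC kinases, none was TE-low or TE-high in a tissue, but *Akt1* and *Akt2*, the kinases of phosphoinositide 3-kinase signalling, were below the median at an adjusted p under 0.05 in all 3. *Akt1* had a log2 TE of -1.57, -1.48 and -1.47 in mesoderm, NT and FL (limma adjusted p = 5.9e-05, 0.0036 and 0.0059) and *Akt2* -1.18, -1.20 and -0.91 (adjusted p = 4.7e-04, 0.0081 and 0.018). *Prkaca* and *Prkacb*, which encode the catalytic subunits of protein kinase A, were at 0.40 and 0.47 in mesoderm and did not pass. In the ERK cascade, which PKC can activate, 0 of 7 genes were TE-low, while *Araf* (-1.49, -1.20 and -1.19) was below the median and passed the limma p threshold in all 3 tissues. *Map2k1* passed above the median in mesoderm (0.49, limma adjusted p = 0.023), and *Braf* passed below it in FL (-0.79, adjusted p = 0.041). The median over the ERK list was -0.22 in mesoderm, -0.26 in NT and 0.08 in FL, nearer 0 than that of the PKC genes in each.

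Between the NT and FL, *Plch1* (log2 -3.94, limma adjusted p = 3.0e-04) and *Mapk3*, which encodes ERK1 (-0.76, adjusted p = 0.010), were lower in FL mRNA. In RPFs 4 of 8 phospholipase C genes were called lower in FL and 0 higher, beside 45.3% of all genes called in either direction. They were *Plch1* (-5.36), *Plce1* (-3.0), *Plcb1* (-2.05) and *Plcb4* (-1.79), with limma adjusted p from 1.6e-05 to 0.0041. *Akt2* (0.52, limma adjusted p = 0.036) and *Prkaca* (0.49, adjusted p = 0.048) were higher in FL RPFs.

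The pattern of log2 TE over the 9 pairs of RPF and mRNA libraries was compared between *Prkcz* or *Prkce* and the 144 other signalling genes found in both tables, by the root mean square (RMS) difference. Nearest to *Prkcz* were *Gpr19*, an orphan G protein-coupled receptor (RMS difference 0.34 on the log2 scale), *Gpr125*, an adhesion receptor (0.45), and *Mapk6*, which encodes ERK3 (0.48), against a median of 1.35 over the 144 genes. *Gpr19* had a mean log2 TE of -1.65, -1.60 and -1.72 in mesoderm, NT and FL. Nearest to *Prkce* were *Map3k7*, which encodes the kinase TAK1 (0.34), *Gpr27*, an orphan receptor (0.40), and *Map2k7*, a kinase of JNK (0.40), against a median of 1.00. *Gpr27* had a mean log2 TE of -1.43, -0.24 and -0.83 in these tissues. These likenesses are descriptions, and the points share libraries. The pairs follow replicate number, which the data do not show to join libraries of the same cells in NT and FL.

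Set beside the annotation, the genes with an upstream ATG in every transcript were *Prkcz*, *Prkce* and *Prkch*, of which *Prkcz* and *Prkce* had the lowest mean log2 TE of the family in each tissue. *Prkch* came next in NT, after *Prkcq* in mesoderm and after *Prkcb* in FL. The order of *Prkch* among its neighbours lay within the spread between replicates in each tissue, as did the place of *Prkce* in NT and FL. *Prkce* was above *Prkch* in NT without replicate 3 (-0.33 against -0.54) and in FL without replicate 2 (-0.38 against -0.51). In NT without replicate 3 it was also above *Prkcd* (-0.39). It was above *Prkcb* in NT without replicate 1 (-0.53 against -0.70) and in FL without replicate 3 (-0.55 against -1.06). With 8 genes and no independent replicate of the family, no test was made of this arrangement.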

How the data were processed

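RNA-Seq and Ribo-Seq libraries of 3 tissues, with 3 replicates each, were used as deposited. The authors trimmed adapters (cutadapt), aligned reads to canonical UCSC known gene isoforms of mm10 (Bowtie2), kept uniquely mapped reads, counted those on the coding sequence (leaving out 15 codons at its start and 5 at its end), and scaled the counts with DESeq size factors. The deposited signal values are thus normalized reads, in 1 table for mesoderm and 1 for NT and FL. In every library 100.0% of values were whole multiples of 1 step (within 0.1 of a read), which gave whole reads for edgeR 4.0.16 and DESeq2 1.42.0 as alternatives. All columns were used. Adapter and alignment settings can change which reads of similar genes are kept, so shared stretches were counted. The tools' versions are not given in the sources used here.

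Main tests used limma 3.58.1 (R 4.3.3) with an intensity-dependent prior variance on log2(normalized reads + 1), Benjamini-Hochberg adjusted over all genes of a table. The pseudocount shrinks fold changes of low genes. TE within a tissue was fitted with library type and replicate number and centred on the median gene. FL minus NT used 4 group means of 12 libraries without a block, with 1 estimate of the spread shared by mRNA and RPF libraries. The study's methods state that sorted mesoderm cells and dissociated neural tubes were divided between Ribo-Seq and RNA-Seq. Deviations from the group means correlated within equal numbers at 0.74, 0.58 and 0.57 in mesoderm, but at -0.28, 0.35 and 0.05 in NT and 0.05, 0.12 and 0.09 in FL, so the data do not show that TE per replicate pairs libraries of the same cells there. Both dissected tissues were taken from shared embryos, but the labels do not tie replicate numbers to embryos. Separate embryos are not named in the labels for each replicate, so p-values measure the spread between these samples. Models were checked on simulated counts. These were drawn without libraries that stand apart and without replicate effects, so the check does not cover such features of the data.

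Genes named are all PKC genes, genes of the other lists past a threshold (up to 5, otherwise the lowest and highest), and the 3 genes nearest *Prkcz* and *Prkce*. Some genes of the other lists are not reported here. Members and lists were chosen with earlier results of these data known. Positions, coding lengths, 5′-UTRs and sequences came from RefSeq on GRCm38.p6, and shared stretches from GENCODE M21. Coding lengths were planned from a protein table and were taken from curated transcripts instead. No protein sequence was used here. Depth limits low genes such as *Prkcz* in FL Ribo-Seq, and read counts carry counting error beside the spread between replicates. Figures were drawn with matplotlib 3.10.9 in Python 3.11.15.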

Additional observations from a re-analysis of the deposited data

How the results depend on the processing

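Results were recomputed with pseudocounts of 0.1 and 8, with a minimum mean of 100 normalized reads, with edgeR and DESeq2, with the replicate block removed (TE) or added (FL minus NT), without centring, at a 2-fold TE threshold and without each replicate. Chosen after seeing the data were fits without each NT or FL library that stood apart. The GENCODE coding lengths equalled the RefSeq lengths for all 8 PKC genes, so using them could not change the order of levels per kb. Which form of *Prkcz* the counted transcript denotes is not given in the sources used here. The shorter *Prkcz* coding lengths were not tried. Of 476 member values, 426 kept their direction and side of the threshold. For TE within a tissue this threshold was the adjusted p alone, so the changes in the 3-fold call of *Prkcz* are not counted there. At 2-fold, 2 PKC genes were called in mesoderm, and all genes called numbered 4178 in mesoderm, 1828 in NT and 4697 in FL, against 1458, 531 and 2206 at 3-fold. Under the minimum mean of 100, *Prkcz* was no longer tested in FL, leaving 0 members called by either rule. edgeR and DESeq2 each called 2 members in FL minus NT mRNA, where they called 2561 and 2932 of all genes against 2542 in limma. In FL minus NT TE, DESeq2 called 856 genes against 45 in limma.

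The replicate block changed no member's call in FL minus NT, nor did removing it in TE within a tissue. With the block, all genes called in FL minus NT TE fell from 45 to 6, and to 4 with the block within tissue. Equal numbers did not deviate together between the tissues (r from -0.58 to -0.29 in RPFs).

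Leaving out replicates gave 0 to 1 members TE-low in each tissue, 1 to 4 below the median at the adjusted p alone in FL, 1 to 3 members in FL minus NT mRNA, 1 to 4 in RPFs and 0 to 1 in TE. All genes called ranged from 1588 to 3454 in FL TE (3-fold rule, either direction), 1173 to 3459 in FL minus NT mRNA, 1686 to 7871 in RPFs and 0 to 4833 in TE. For TE within a tissue, the share of all genes at the adjusted p alone was not counted in these fits. Without FL Ribo-Seq replicate 3 alone, 3 members were called in mRNA, where 3459 of all 11231 genes were called, and 4072 genes in TE. The mRNA differences did not change in that fit (*Prkcb* -1.341, *Prkcd* 0.445). Only the estimate of the spread, which mRNA and RPF libraries share, did. Without NT RNA-Seq replicate 1 alone, 2 members were called in mRNA, where 2395 of all genes were called, and 3 genes in TE. Without NT Ribo-Seq replicate 3 alone, 2933 genes were called in TE.

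The sign changed in 29 member values, none of which passed a threshold before or after. Without centring, *Prkci* was at 0.032 in mesoderm and 0.006 in NT, and *Prkch* in FL minus NT TE was at 0.022 in DESeq2 and 0.007 in edgeR. Leaving out replicates, *Prkci* ranged from -0.148 to 0.181 in mesoderm TE and -0.122 to 0.017 in NT TE. *Prkcb* ranged from -0.696 to 0.791 in NT TE and -1.059 to 0.083 in FL TE, and *Prkca* from -0.11 to 0.376 in FL TE. In FL minus NT mRNA, *Prkch* ranged from -0.224 to 0.183 and *Prkca* from -0.11 to 0.208. In RPFs *Prkch* ranged from -0.252 to 0.132 and *Prkci* from -0.201 to 0.319. In FL minus NT TE, *Prkcz* ranged from -0.688 to 0.303, *Prkce* from -0.251 to 0.195, *Prkch* from -0.435 to 0.2 and *Prkcb* from -1.861 to 0.746. The causes were not tested. Depth limits *Prkcz* in FL RPFs and *Prkcq* in mesoderm RPFs, whose lowest libraries held 17 and 19 reads.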
